A study of Triticum aestivum with 12 samples.

Results

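Of 107411 genes measured in the flag leaf of bread wheat, 13 were read in AAC Starbuck and were at or near 0 in AAC Concord, AAC Magnet and AAC Tradition. They were chosen by their values: at least 10 normalized counts in each of the 3 AAC Starbuck libraries and at most 1.3 in each of the other 9 libraries. Only genes assigned to a chromosome were considered (104913 genes), and 6 blocks of consecutive identifiers on 1B, 2A, 2B, 3D, 4A and 6B were left out, so that 102427 genes could qualify. The same rule applied to each other variety gave 38 genes for AAC Concord, 24 for AAC Magnet and 11 for AAC Tradition. Because the rule used all 12 libraries, the contrast of AAC Starbuck with the other varieties is the choice itself, and it is given here as levels, with no test.

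All 4 varieties are modern Canadian spring wheats, each represented by 3 libraries of flag leaf RNA from plants with the treatment label Control. The study describes plants of a greenhouse, whereas the sample labels describe plots of a field, and the values cannot settle which holds. Variety is the only factor that the labels give. The labels do not tie each library to a plant or plot of its own, and p-values therefore measure only the spread between these libraries.

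Bread wheat is a hexaploid that carries the A, B and D subgenomes, so that most genes have a near-identical partner, a homoeologue, on the matching chromosome of each other subgenome. The flag leaf is the last leaf formed before the ear and feeds the filling grain. Varieties of a crop differ both in which genes they carry and in which of the shared genes they transcribe. A read count of 0 does not separate these cases, and fewer transcribing cells cannot be told apart from less RNA per cell.

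A normalized count here is a read count that the authors scaled between libraries by a method not stated in the sources used here. The values are taken as not corrected for gene length, which was not tested. The values of a library summed to 5077330 to 5902642. The usual step between low values, taken as about 1 read, was worth 0.797 to 1.24 normalized counts, so that AAC Starbuck libraries held an estimated 4901537 to 6910716 reads and the other libraries 4494413 to 7073882. A count of 0 allows up to 3 reads, which is 2.48 to 3.73 normalized counts in the other libraries, for counting error only. A few low values depart from the step, so every number of reads given here is an estimate. The upper end, 3.73, is the floor used for the lower bounds below. None of the identifiers matched the 155467 entries of the reference gene table, so the genes are given by identifier alone, without a name, a role or a sequence. An identifier gives the chromosome and the order of genes along it.

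TraesCS3B02G381800 was the most highly read of the 13 genes. It had 221, 289 and 317 normalized counts in AAC Starbuck and 0 in all other libraries. Its mean of 275 ± 49.5 (SD, n = 3) was at least 73.8-fold higher than the floor, and exceeded 90.6% of the 35844 placed genes outside the blocks with 10 or more counts in every AAC Starbuck library. Only 1 further gene of the set had a mean over 50.

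That gene was TraesCS4A02G317500, with 37.9, 148 and 138 normalized counts in AAC Starbuck and 0 elsewhere (mean 108 ± 61.1, SD, n = 3). Replicate 1 was far below the other AAC Starbuck libraries. The mean was at least 29.0-fold higher than the floor.

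Next in level came a pair of genes with uneven replicates. TraesCS6B02G015900 had 67.7, 21.8 and 39.1 normalized counts in AAC Starbuck and 0 elsewhere, a mean of 42.9 ± 23.2 (SD, n = 3) and at least 11.5-fold above the floor. TraesCS2B02G618000 had 47.4, 41.1 and 19.5 normalized counts in AAC Starbuck and 0 elsewhere, a mean of 36.0 ± 14.6 (SD, n = 3) and at least 9.65-fold above the floor. The low library was replicate 2 for the first gene and replicate 3 for the second, so no single AAC Starbuck library was low for both.

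TraesCS3B02G210800 and TraesCS3B02G210700 are neighbours on chromosome 3B with no gene between them. TraesCS3B02G210800 had 27.4, 39.7 and 22.3 normalized counts in AAC Starbuck and 0 elsewhere (mean 29.8 ± 8.93, SD, n = 3, at least 7.98-fold above the floor). TraesCS3B02G210700 had 17.3, 14.5 and 13.6 normalized counts in AAC Starbuck and 0 elsewhere (mean 15.1 ± 1.95, SD, n = 3, at least 4.06-fold above the floor). Every library of the first gene was above every library of the second, as counts not corrected for length.

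Chromosome 6B held a further pair of the genes. TraesCS6B02G424400 had 45.7, 10.4 and 28.7 normalized counts in AAC Starbuck and 0 elsewhere (mean 28.3 ± 17.7, SD, n = 3, at least 7.58-fold above the floor). TraesCS6B02G145000 had 20.6, 27.0 and 18.4 normalized counts in AAC Starbuck and 0 elsewhere (mean 22.0 ± 4.48, SD, n = 3, at least 5.89-fold above the floor). The first of them varied more between AAC Starbuck replicates than any other gene of the set, and its replicate 2 lay just inside the minimum of 10.

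The lowest levels among the genes at 0 in all 9 other libraries belonged to TraesCS3B02G421600 and TraesCS2A02G586000. TraesCS3B02G421600 had 17.4, 13.5 and 10.4 normalized counts in AAC Starbuck (mean 13.8 ± 3.55, SD, n = 3, at least 3.69-fold above the floor). TraesCS2A02G586000 had 12.2, 14.8 and 12.5 normalized counts in AAC Starbuck (mean 13.2 ± 1.45, SD, n = 3, at least 3.53-fold above the floor). Both genes were represented by few reads.

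The remaining 3 genes were not fully silent elsewhere. TraesCS3A02G319100 had 35.4, 18.7 and 19.2 normalized counts in AAC Starbuck (mean 24.4 ± 9.49, SD, n = 3), against 0.938 in AAC Concord replicate 1 and 1.24 in AAC Tradition replicate 1, each about 1 read. TraesCS3D02G359200 had 18.1, 14.5 and 27.9 normalized counts in AAC Starbuck (mean 20.2 ± 6.95, SD, n = 3), against 1.05 and 0.889 in AAC Magnet replicates 1 and 3 and 0.993 and 1.11 in AAC Tradition replicates 2 and 3. TraesCS3B02G133100 had 18.1, 19.7 and 11.2 normalized counts in AAC Starbuck (mean 16.3 ± 4.54, SD, n = 3), against about 1 read in each of 7 other libraries, which included all 3 of AAC Concord (0.938, 0.824 and 0.886). TraesCS3B02G133100 was thus the gene of the set with traces in the most libraries. With Salmon, a read shared by homoeologues can be divided between them, and whether these single reads came from a partner gene was not tested.

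Over the set, 10 genes were at 0 in all 9 other libraries and 3 were not. Of 117 values in the other libraries, 13 were above 0, between 0.824 and 1.24, of which AAC Concord held 4, AAC Magnet 4 and AAC Tradition 5. In AAC Starbuck the 13 genes were represented by an estimated 44.8 to 943 reads each over 3 libraries. Together they made up 0.0122% of AAC Starbuck's normalized counts. The set was therefore low in level: the median of the gene means was 24.4 normalized counts, beside 60.1 for the 35844 comparison genes, and 11 of the 13 lay under that median.

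**Figure D1:**
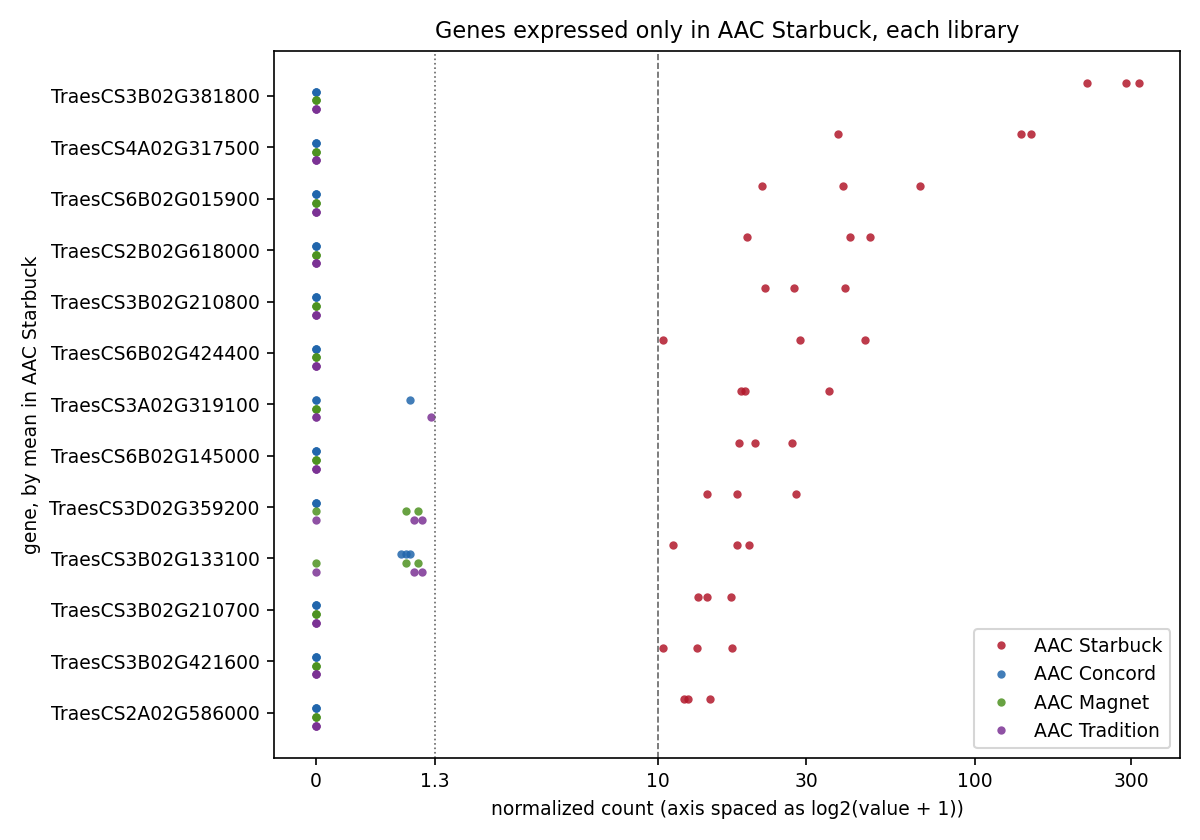
Normalized counts of the 13 genes in each of the 12 libraries, on an axis spaced as log2(value + 1), with the genes ordered by their mean in AAC Starbuck and 1 point per library. The dashed and dotted lines mark the limits of the choice, 10 and 1.3, and TraesCS3B02G381800 lies farthest to the right with 221 to 317 normalized counts.

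The limits of the choice cut through a continuous range of values. Just inside the minimum of 10 were TraesCS6B02G424400 and TraesCS3B02G421600, each with 10.4 normalized counts in their lowest AAC Starbuck library. Just outside it was TraesCS1B02G380400, with 9.51, 13.6 and 10.8 normalized counts in AAC Starbuck and 0.870 in AAC Tradition replicate 1 as its only value above 0 elsewhere. TraesCS3B02G289300 missed it with 14.9, 10.4 and 7.98 normalized counts in AAC Starbuck and 0 elsewhere, and TraesCS2A02G358400 missed it with a lowest AAC Starbuck value of 8.29.

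Genes just past the upper limit of 1.3 were not all of low level. TraesCS1B02G062500 had 59.3, 41.5 and 56.7 normalized counts in AAC Starbuck and 1.65 in AAC Concord replicate 2, which is about 2 steps of that library. TraesCS4A02G309600 had 51.9, 36.3 and 36.7 normalized counts in AAC Starbuck and at most 1.65 elsewhere. TraesCS4A02G165900 missed the limit through 1.34 in AAC Tradition replicate 1, a library in which 1 read is worth 1.24. Had that library been left out, 20 genes would have met the rule, all 13 among them.

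The replicates of the 13 genes were spread more widely than those of most genes. The coefficient of variation (SD over mean) across the 3 AAC Starbuck libraries ranged from 0.110 in TraesCS2A02G586000 to 0.625 in TraesCS6B02G424400, with a median of 0.30. The median was 0.158 over 35831 other genes with 10 or more in all AAC Starbuck libraries. It was 0.180 over the 23067 of these in a central range of means, which left out the highest and lowest means of the set. It depended on level: it was 0.231 at means of 15 to 20 and 0.215 at means of 20 to 30, where 7 of the 13 genes lay. Against the median of other genes in their own range of means, 10 of the 13 genes were above it.

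The spread can be set beside that of counting the estimated reads alone, and its cause was not tested. The ratio of the observed coefficient to that of counting the estimated reads was 0.425 in TraesCS2A02G586000 and 0.538 in TraesCS3B02G210700, the only genes below counting. It was 3.85 in TraesCS6B02G015900 and 6.21 in TraesCS4A02G317500, and 6 genes exceeded a ratio of 2. In 4 genes the highest AAC Starbuck library was at least 2 times the lowest. These 4 were not all lowest in the same library. Replicate 2 was the lowest for TraesCS6B02G015900 and TraesCS6B02G424400, replicate 1 for TraesCS4A02G317500 and replicate 3 for TraesCS2B02G618000. Among all 13 genes replicate 1 was the lowest for 3, replicate 2 for 4 and replicate 3 for 6.

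**Figure D2:**
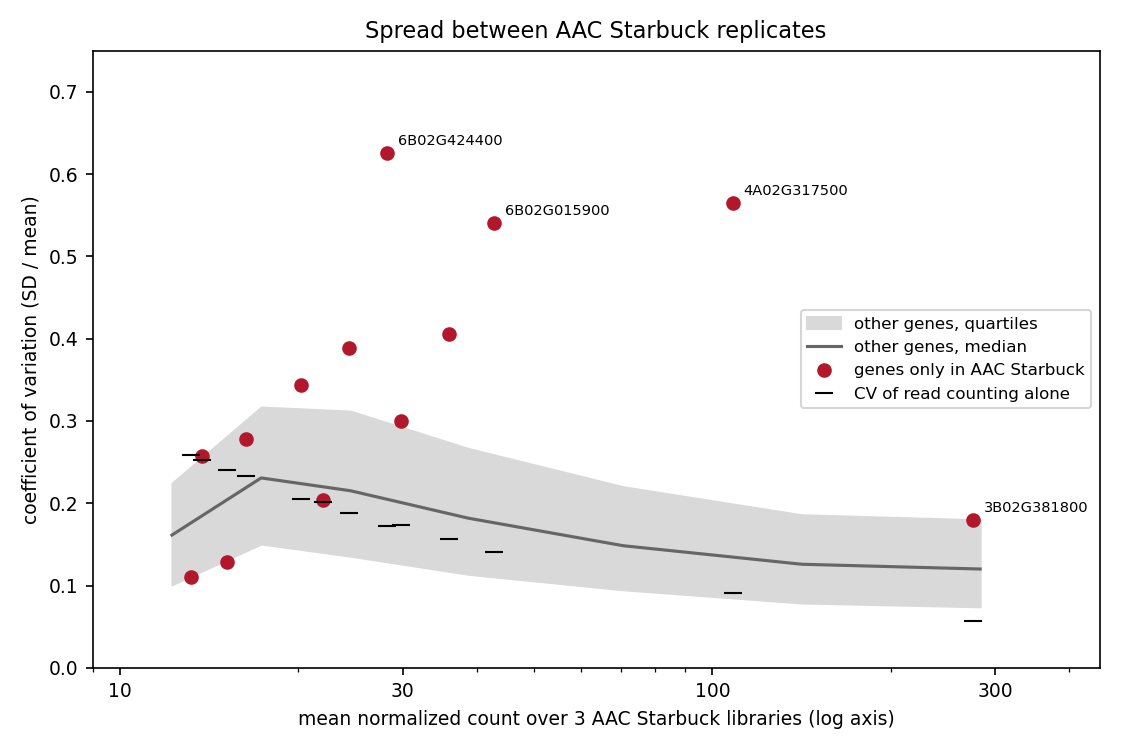
Coefficient of variation over the 3 AAC Starbuck libraries against the mean normalized count (log axis) for the 13 genes (points), with the median and quartiles of other genes (line and grey band) and the coefficient that read counting alone would give (dashes). TraesCS6B02G424400, TraesCS4A02G317500 and TraesCS6B02G015900 lie highest, at 0.625, 0.565 and 0.540.

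The genes lay mostly on the B subgenome. It held 9 of the 13 (69.2%), beside 32.5% of the 35844 comparison genes. The A subgenome held 3 (23.1%, beside 33.3%) and the D subgenome 1 (7.69%, beside 34.2%). Within the B subgenome, chromosome 3B held 5 genes (38.5% of the set, beside 5.27%) and chromosome 6B held 3 (23.1%, beside 3.97%). Chromosomes 2A, 2B, 3A, 3D and 4A held 1 each, and the other 14 of 21 chromosomes held none. With 13 genes these shares are a description.

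The genes were scattered rather than clustered along their chromosomes. On 3B the 5 genes were separated by 737, 0, 1635 and 389 other genes, so that TraesCS3B02G210700 and TraesCS3B02G210800 formed the only pair. On 6B the 3 genes were separated by 1275 and 2694 genes. TraesCS2B02G618000 (place 5981 of 6092), TraesCS2A02G586000 (place 5698 of 5777) and TraesCS6B02G015900 (place 157 of 4608) were within 5% of a chromosome end by gene order. None of the 39 wax genes on which the study centres was among the 13.

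Whether the neighbours of these genes also differed between varieties was tested, since the rule did not use the neighbours' values. Neighbours were the non-member genes 1 to 5 places away in identifier order, outside the blocks. Of these, 41 reached 10 normalized counts in at least 3 libraries and were tested with limma on log2(value + 1), in 1 fit of all 12 libraries with p-values adjusted over all 44026 genes tested. Genes were called where the adjusted p was under 0.05 and the log2 fold change went beyond 1 in either direction. In AAC Starbuck against the mean of the other varieties, 8 of 41 neighbours (19.5%) were called, 5 higher and 3 lower, where 6.18% of all genes tested were called (3.83% higher and 2.35% lower) and 5.64% of the 42727 outside the blocks that are not members. Of the 8, TraesCS3A02G319000 and TraesCS2B02G618200 reached 10 in 1 variety only and so entered the test through the variety in which they are high. Without them 6 of 39 neighbours (15.4%) were called, beside 5.6% of the 43460 genes that reached 10 in at least 2 varieties. The 6 still include TraesCS3B02G421700, which passed the filter only through the AAC Starbuck libraries. They also include TraesCS6B02G145100, lower in AAC Starbuck, which passed it only through libraries of AAC Magnet and AAC Tradition. The count of 8 was 5 without AAC Starbuck replicate 1, without AAC Starbuck replicate 2 or without AAC Concord replicate 2. With all libraries brought to a common total, 5 were higher and 1 lower. The count was 4 with a pseudocount of 5, and 13 with no limit on the fold change, a rule that 10.2% of all genes tested passed.

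The share of calls at 1 to 5 places, 19.5%, was above the shares farther off. It counts TraesCS3A02G319000, TraesCS3B02G421700, TraesCS2B02G618200 and TraesCS6B02G145100, which entered the test only through the varieties in which they are high. Genes farther off were not sorted in this way, and the difference between the shares was not tested. At 6 to 10 places 2 of 57 genes were called (3.51%), at 11 to 20 places 9 of 107 (8.41%), at 21 to 50 places 20 of 285 (7.02%), and beyond 50 places 2370 of 42237 (5.61%). The calls did not lie beside every gene: 6 of the 13 had a called neighbour and 7 had none. Among the 7, TraesCS6B02G015900 had no neighbour high enough to be tested and so could have no call. The number of neighbours tested differed between the genes.

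**Figure D3:**
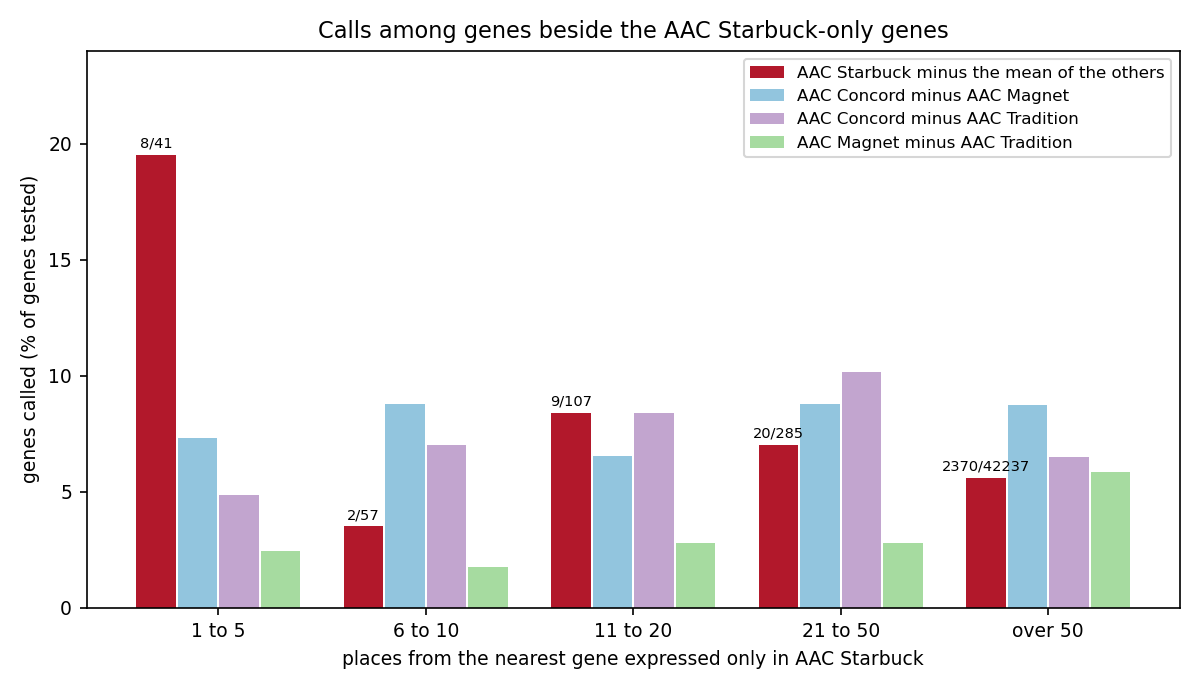
Percent of tested genes that were called, by distance in places from the nearest of the 13 genes, for AAC Starbuck against the mean of the others and for the pairs without AAC Starbuck, with calls over genes tested printed above the AAC Starbuck bars. The AAC Starbuck bar stands at 19.5% (8 of 41) for 1 to 5 places and at 5.61% beyond 50 places. The 8 include genes that entered the test only through the varieties in which they are high.

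Set against single varieties, the neighbours gave 7 calls of 41 in AAC Starbuck against AAC Concord (17.1%, where 9.0% of all genes tested were called). They gave 6 calls against AAC Magnet (14.6%, beside 6.11%) and 4 against AAC Tradition (9.76%, beside 4.97%). These comparisons share the AAC Starbuck libraries. Some calls were of genes that entered the test only through the varieties in which they are high. TraesCS3A02G319000 was called in each of these comparisons, and TraesCS3B02G421700 against AAC Magnet and AAC Tradition. TraesCS2B02G618200 was called against AAC Concord and TraesCS6B02G145100 against AAC Tradition. The shares are therefore a description. Between varieties other than AAC Starbuck the same neighbours gave 3 calls for AAC Concord against AAC Magnet (7.32%, beside 9.26%), 2 for AAC Concord against AAC Tradition (4.88%, beside 7.05%) and 1 for AAC Magnet against AAC Tradition (2.44%, beside 6.21%). The difference between these shares was not tested. The 4 calls against AAC Tradition became 0 without AAC Starbuck replicate 2, and 2 without AAC Starbuck replicate 3 or without AAC Tradition replicate 2. In AAC Concord against AAC Magnet there were 5 calls without AAC Magnet replicate 2. In AAC Concord against AAC Tradition there was 1 without AAC Concord replicate 1 or 2, and in AAC Magnet against AAC Tradition 2 without AAC Magnet replicate 2 or AAC Tradition replicate 2.

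The AAC Starbuck libraries did not overlap the other 9 in 7 of the 41 neighbours (17.1%), beside 5.59% of all genes tested. Of these 7, 4 were called (9.76% of the neighbours, beside 2.58% of all genes tested) and 3 were not. The 7 and the 4 both include TraesCS3A02G319000 and TraesCS3B02G421700, which passed the filter only through the AAC Starbuck libraries. These shares are therefore a description. Among the 4 was TraesCS3A02G319000, the gene just before TraesCS3A02G319100. It had 28.8, 15.6 and 23.9 normalized counts in AAC Starbuck, against 3.72 in AAC Tradition replicate 1 and 0 in the other 8. It passed the filter only through the AAC Starbuck libraries, so its values are a description. It missed the set through that 1 library of AAC Tradition, which held about 3 reads.

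The genes on either side of this pair were read in AAC Starbuck only, at levels too low for the test. TraesCS3A02G318900 had 2.49, 1.04 and 2.39 normalized counts in AAC Starbuck and 0 in the other 9 libraries. TraesCS3A02G319200 had 8.27, 4.14 and 0 normalized counts in AAC Starbuck and 0 in the other 9. Chromosome 3A thus held 4 consecutive genes whose reads came, apart from traces in 2 of the 4, from AAC Starbuck. The outer pair was singled out after its values were seen.

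TraesCS3B02G421700, the gene just after TraesCS3B02G421600, was also higher in AAC Starbuck. It had 20.6, 19.7 and 20.7 normalized counts in AAC Starbuck, against 4.69, 11.6 and 6.22 in AAC Concord, 1.05, 1.19 and 2.67 in AAC Magnet, and 0, 4.96 and 4.42 in AAC Tradition. The log2 fold change on the log2(value + 1) scale was 2.41 ± 0.48 (SE, limma). This gene, too, passed the filter only through the AAC Starbuck libraries, so its values are a description and no p-value is given. Unlike the member beside it, this neighbour was read in every variety.

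TraesCS3B02G132900, which lies 2 places before TraesCS3B02G133100, had 52.9, 41.5 and 35.1 normalized counts in AAC Starbuck, against 10.7 to 26.0 in the other 9 libraries (log2 fold change 1.11 ± 0.21, SE, limma, adjusted p = 0.0076). The call was lost without AAC Starbuck replicate 1 (log2 fold change 0.96) and with a pseudocount of 5 (0.97). TraesCS6B02G424500, just after TraesCS6B02G424400, moved the other way. It had 98.1, 79.9 and 114 normalized counts in AAC Starbuck, against 180 to 233 in the other 9 (log2 fold change -1.07 ± 0.13, SE, limma, adjusted p = 0.00032). A gene read only in AAC Starbuck thus stood next to one that fell there. When all libraries were brought to a common total, the log2 fold change of TraesCS6B02G424500 was -0.99, and without AAC Starbuck replicate 2 it was -0.94, both short of the limit.

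The other 4 called neighbours overlapped between the groups, and they are named after their values were seen. TraesCS3B02G133400, 3 places after TraesCS3B02G133100, had 1687, 2568 and 3039 normalized counts in AAC Starbuck, against 1731, 1388 and 1261 in AAC Concord, 446, 614 and 430 in AAC Magnet, and 1444, 1539 and 1313 in AAC Tradition. Its log2 fold change was 1.23 ± 0.19 (SE, limma, adjusted p = 0.0020), with AAC Magnet lowest. Set against single varieties, it was called against AAC Magnet (log2 fold change 2.27) but not against AAC Concord (0.71) or AAC Tradition (0.72). It was also called in AAC Concord against AAC Magnet (1.56). TraesCS2B02G617600 (log2 fold change 1.12 ± 0.30, SE, limma, adjusted p = 0.039) lost its call in 9 of 19 alternatives. TraesCS6B02G145100 (log2 fold change -1.05 ± 0.28, SE, limma) lost its call in 12 of 19, most of them with a single library left out. It passed the filter only through libraries of AAC Magnet and AAC Tradition, where it was higher, so no p-value is given. TraesCS2B02G618200 was called although AAC Starbuck did not stand apart. It was at 0 in AAC Starbuck, AAC Magnet and AAC Tradition and had 15.0, 20.6 and 16.0 normalized counts in AAC Concord.

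Many neighbours were too low for the test, and their presence or absence of reads can be counted. The shares set beside them are those of all 102414 non-member genes outside the blocks, the neighbours included. Of 120 neighbours within 5 places, 36 (30%) were at 0 in every library, beside 30.2%. Above 0 in every library were 46 (38.3%), beside 44.6%. Reads in AAC Starbuck alone were found for 8 neighbours (6.67%, beside 1.74%), only in AAC Concord for 3 (2.50%, beside 1.79%), only in AAC Magnet for 1 (0.833%, beside 1.22%) and only in AAC Tradition for 1 (0.833%, beside 1.05%). At the depth of these libraries such states often rest on 1 or 2 reads. With reads required in at least 2 AAC Starbuck libraries and no other, 4 neighbours remained (3.33%, beside 0.349%). The like state was found for AAC Concord in 2 neighbours (1.67%, beside 0.456%), for AAC Magnet in 1 (0.833%, beside 0.232%) and for AAC Tradition in 1 (0.833%, beside 0.176%). All 4 varieties were thus above their background, on 1 to 4 genes each.

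The opposite state was present as well. At 0 in AAC Starbuck and above 0 in at least 6 of the other 9 libraries were 4 neighbours (3.33%, beside 0.373%). The counts were 2 for the like state of AAC Concord (1.67%, beside 0.773%), 2 for that of AAC Magnet (1.67%, beside 0.856%) and 0 for that of AAC Tradition (beside 0.656%), and the differences between varieties were not tested. TraesCS2B02G618300, 3 places after TraesCS2B02G618000, was at 0 in AAC Starbuck and had 0.994 to 7.09 normalized counts in the other 9. TraesCS6B02G145400, 4 places after TraesCS6B02G145000, was at 0 in AAC Starbuck and AAC Magnet, and had 2.82, 3.30 and 7.99 normalized counts in AAC Concord and 14.9, 7.94 and 13.3 in AAC Tradition. TraesCS6B02G145300 beside it was at 0 in the same varieties and above 0 in all 6 other libraries, at up to 6.95 normalized counts. TraesCS6B02G145300 and TraesCS6B02G145400 were thus counted both for AAC Starbuck and for AAC Magnet. Around TraesCS2B02G618000 and TraesCS6B02G145000, therefore, reads missing from AAC Starbuck stood within 5 places of reads found there alone. These examples were chosen after their values were seen.

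**Figure D4:**
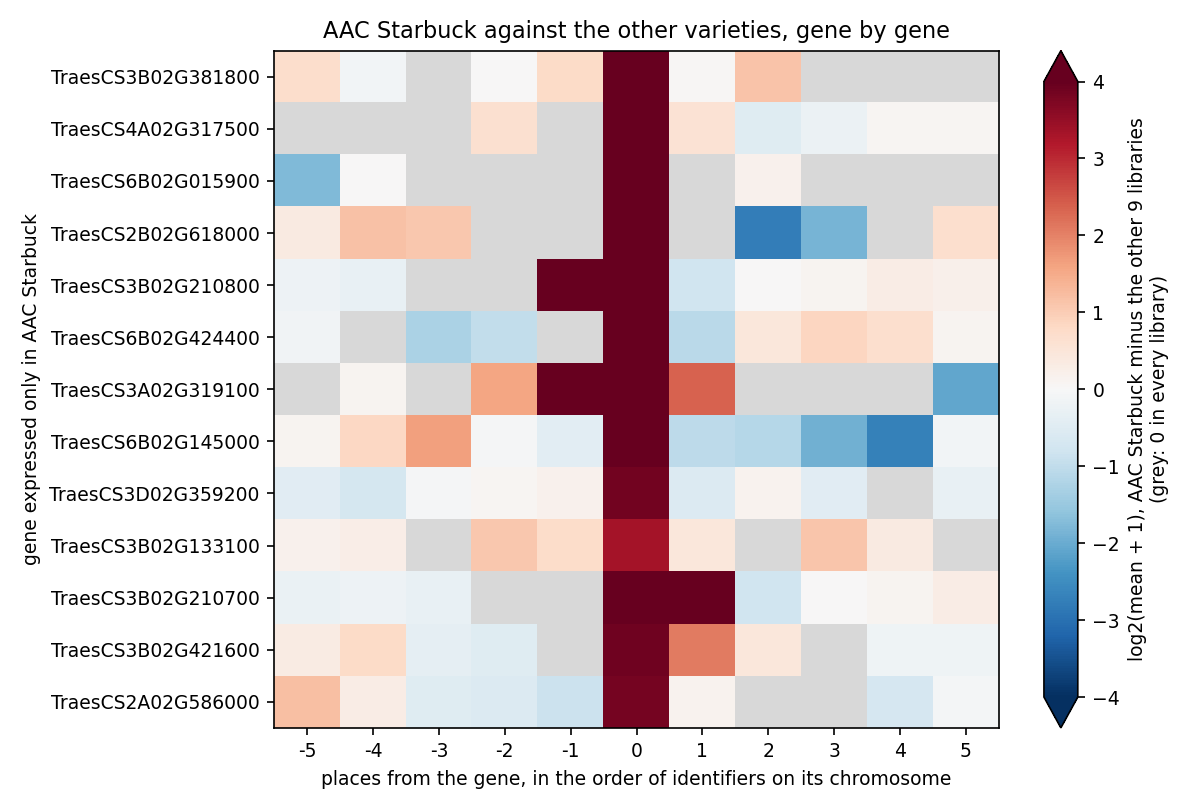
Difference in log2(mean + 1) normalized count, AAC Starbuck minus the other 9 libraries, for each of the 13 genes (place 0) and the 5 genes on either side, with red for higher and blue for lower in AAC Starbuck and grey for genes at 0 in every library. The rows of TraesCS3B02G210700 and TraesCS3B02G210800 show the adjacent pair, and the row of TraesCS3A02G319100 shows its 2 neighbours before it and 1 after it that are higher in AAC Starbuck.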

How the data were processed

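Flag leaf RNA of 4 varieties was measured in 12 libraries, 3 per variety. Reads were trimmed by the authors with Trimmomatic and quantified with Salmon on RefSeq v2.1, and DESeq2 was used for their comparisons. The deposited signal values are normalized counts, and how they were normalized is not stated. The paper heads such values as TPM, but the column sums of at least 5077330 exceed what TPM can reach. Identifiers are those of RefSeq v1.1. All 12 value columns were mapped to samples by their labels.

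The members, lists and tests were chosen with earlier results of these data known. Values were read in Python 3.11.15 (numpy 2.4.6, pandas 2.3.3, matplotlib 3.10.9). Neighbours were tested with limma 3.58.1 (R 4.3.3), taking log2(value + 1), with variety as the only term and no trend (8 residual and 2.80 prior degrees of freedom), after a filter of 10 in at least 3 libraries, with Benjamini-Hochberg adjustment. Among low values, 89.7% to 93.2% fell within 0.05 of a whole number of steps. Exact reads were not recovered for the table and no count model was run. Numbers of reads, floors and counting coefficients are estimates from the step.

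All 13 members are named. Of non-members, the rule named 3 just outside each limit of the choice and, among called neighbours without overlap, up to 3 with the largest change in each direction. Other genes are marked as chosen later. The alternatives were other pseudocounts, filters, scalings, a trend, a replicate block, no fold limit, other limits of the choice and each library left out.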

Additional observations from a re-analysis of the deposited data

How the results depend on the processing

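The number of genes chosen moved with the limits: 23 at a minimum of 5 in AAC Starbuck, 4 at a minimum of 20 (where 0 genes lay in a run, against 2) and 29 at a limit of 4 in the other libraries. It was 13 to 20 with 1 library left out, the highest without AAC Tradition replicate 1. All 13 genes were kept in each of these except at the minimum of 20 (4 kept) and at a limit of 0 in the other libraries (10 kept). Called neighbours in AAC Starbuck against the others (8) numbered 4 with a pseudocount of 5, 2 among the 14 with a mean of at least 50, 13 with no limit on the fold change (where 10.2% of all genes passed) and 5 to 7 with 1 library left out. With no filter there were 11 calls in AAC Starbuck against AAC Concord, 7 against AAC Tradition, 5 in AAC Concord against AAC Magnet, 4 in AAC Concord against AAC Tradition and 5 in AAC Magnet against AAC Tradition. With a mean of at least 50 there were 2 in AAC Starbuck against AAC Concord, 3 against AAC Magnet, 0 against AAC Tradition, 1 in AAC Concord against AAC Magnet and 0 in AAC Concord against AAC Tradition. A pseudocount of 5 left 2 calls in AAC Starbuck against AAC Tradition. With 1 library left out the calls were 5 to 8 for AAC Starbuck against AAC Concord, 4 to 6 against AAC Magnet, 0 to 4 against AAC Tradition, 2 to 5 for AAC Concord against AAC Magnet, 1 to 3 for AAC Concord against AAC Tradition and 1 to 2 for AAC Magnet against AAC Tradition. Fewer genes tested account for part of the change with the filters. Otherwise the cause was not tested. Scaling to the same total moved the median log2 fold change of all genes to 0.12 in AAC Starbuck against AAC Concord and 0.13 against AAC Tradition, and left 6 calls against the mean of the others. An alternative chosen after seeing the data, which asked for 10 in a library of at least 2 varieties, left 6 calls of 39. Residuals of libraries with the same replicate number correlated at -0.14 to 0.21 (median 0.029) and of other numbers at -0.23 to 0.18 (median -0.007). These ranges overlapped, and whether libraries of the same number share more than a label was not tested. With the replicate block the calls numbered 8 in AAC Starbuck against the others, and no count in any pair of varieties changed.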

Other observations

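A further gene met both limits but lay in a block that was left out. TraesCS6B02G451600, at place 4393 of chromosome 6B, had 33.8, 48.7 and 31.9 normalized counts in AAC Starbuck (mean 38.1 ± 9.23, SD, n = 3) and 0 in the other 9 libraries. No gene without a chromosome met the limits.

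Lowering the minimum to 5 added 10 genes and raising the other limit to 4 added 16. Of these 26, TraesCS3A02G319000 was the only 1 within 10 places of the 13 genes. Outside their neighbourhood, TraesCS7D02G532100 had 46.1, 50.9 and 52.7 normalized counts in AAC Starbuck, against 1.19 in AAC Magnet replicate 2, 1.99 and 2.21 in AAC Tradition replicates 2 and 3 and 0 in the other 6. TraesCS4D02G283600 had 49.4, 159 and 29.5 normalized counts in AAC Starbuck, against 2.39 and 0.890 in AAC Magnet replicates 2 and 3 and 0 in the other 7. Both lie on the D subgenome, which held 1 of the 13, and both were picked out after their values were seen.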
